A study of Mus musculus with 2 samples.

Results

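The genes described here are 10 members of the Toll-like receptor system: the receptors Tlr1, Tlr2, Tlr3, Tlr4, Tlr7 and Tlr9, the adaptors Myd88 and Ticam1, and the lipopolysaccharide-handling proteins Cd14 and Lbp. They were chosen by name and matched by RefSeq identifier to the mRNA table of an RNA-seq series. All 10 were found among 20317 genes with a symbol. Of these genes, 12012 had a value above 0 in the oil library, the CCl4 library or both and were compared.

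The series holds 2 libraries of primary hepatocytes from wild-type C57BL/6J male mice, 5 weeks old when obtained, before the injections, per the study's methods. The oil library came from mice given oil by intraperitoneal injection. The CCl4 library came from mice given a 20% carbon tetrachloride solution at 2.5 ml/kg, 2 injections a week, a toxic model of liver fibrosis. The labels give 8 weeks of injections and the methods give 4. The cells were obtained by pronase and collagenase perfusion and a density gradient, and the sources used here do not say how many mice were pooled for a library. With 1 library a group there is no replicate check of any difference below, and no test was run. The intervals given cover the counting of reads only.

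The sequencing depth read from the steps of the values was about 57992579 reads for oil and 64655553 for CCl4. The table of new lncRNAs was scaled to other totals, about 62438200 and 70960800 reads. Levels are in RPKM, which divides reads by the size of the library and the length of the transcript. The table lists a 0 wherever the level was below 1 RPKM. Hepatocyte markers were at high levels in both libraries, with albumin (Alb) at 8656 RPKM in oil and 6476 RPKM in CCl4. Transcripts that define other liver cells were also present. The macrophage gene C1qc was listed at 247 and 611 RPKM, and the sinusoidal endothelial gene Clec4g at 238 and 379.8 RPKM. Both libraries thus held the labelled cell type's defining mRNAs together with markers of macrophages and endothelium.

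Toll-like receptors are membrane proteins that bind microbial molecules or products of damaged cells. Tlr1, Tlr2 and Tlr4 act at the cell surface on bacterial lipopeptides and lipopolysaccharide, whereas Tlr3, Tlr7 and Tlr9 act in endosomes on nucleic acids. Most signal through the adaptor Myd88 to NF-kappaB. Tlr3 uses Ticam1 (TRIF) to induce interferon, and Tlr4 uses both. Lbp, made by hepatocytes and secreted into plasma, delivers lipopolysaccharide to Cd14, which passes it to the complex of Tlr4 and Ly96 (MD-2). In liver, Kupffer cells and other macrophages are the best-known carriers of these receptors, and Tlr4 is also found on hepatocytes, stellate cells and endothelium.

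Upstream sequence was matched in RefSeq (GRCm38.p6) for 6 of the 10 members, in 7 entries. Tlr4, Tlr7, Cd14 and Lbp had no entry. The 3 shown here are the entries whose start site is also the outer start of the annotated gene, so that no base of the window lies in the gene itself or in another annotated gene. They belong to both adaptors, Myd88 and Ticam1, and to Tlr9, a receptor listed at 0 in oil. Each run is the 250 bases before the start site, 5′ to 3′ on the gene's own strand, and the capitals mark a match to the motif of a factor tied to this system. The Myd88 window is chr9:119340019-119340268 and the Ticam1 window chr17:56276768-56277017, both on the minus strand, and the Tlr9 window is chr9:106222348-106222597 on the plus strand.
Myd88: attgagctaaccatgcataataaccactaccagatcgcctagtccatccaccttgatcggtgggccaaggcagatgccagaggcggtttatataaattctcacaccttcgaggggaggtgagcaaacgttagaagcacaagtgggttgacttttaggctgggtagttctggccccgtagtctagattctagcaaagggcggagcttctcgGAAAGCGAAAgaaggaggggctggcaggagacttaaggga
Ticam1: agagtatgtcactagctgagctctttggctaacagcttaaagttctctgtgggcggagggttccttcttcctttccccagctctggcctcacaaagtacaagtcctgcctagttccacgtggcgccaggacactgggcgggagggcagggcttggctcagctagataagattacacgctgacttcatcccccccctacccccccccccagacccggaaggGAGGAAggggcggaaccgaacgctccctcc
Tlr9: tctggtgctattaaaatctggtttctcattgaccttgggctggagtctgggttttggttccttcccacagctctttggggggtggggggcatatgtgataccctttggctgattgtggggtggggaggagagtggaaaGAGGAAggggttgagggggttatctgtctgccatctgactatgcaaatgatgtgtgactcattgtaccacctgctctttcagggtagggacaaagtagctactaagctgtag

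In Myd88 the capitals mark a match to the interferon-stimulated response element, searched as GAAANNGAAA, 40 bases before the start. In Ticam1 and Tlr9 they mark GAGGAA, the core of the motif of PU.1, the myeloid transcription factor, 30 and 112 bases before the start. The entries of Tlr1, Tlr2 and Tlr3 use start sites inside the annotated gene, so their windows overlap it and are described only in words. The Tlr1 start lies 42 bases inside the gene, with a PU.1 match 23 bases before that start. The Tlr2 start lies 216 bases inside, with 2 overlapping matches to the NF-kappaB consensus beginning 173 and 172 bases before it. The Tlr3 start lies 695 bases inside, with an NF-kappaB match 211 bases before it. These matches all fall within the annotated gene and not upstream of it. Another listed Tlr1 start, 901 bases inside, held none of the 3 motifs. Both strands were searched. Of 32851 windows of the same length, 23.25% held the PU.1 letters, 2.977% the interferon element and 7.251% the NF-kappaB consensus. A match describes letters and not binding.

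**Figure D1:**
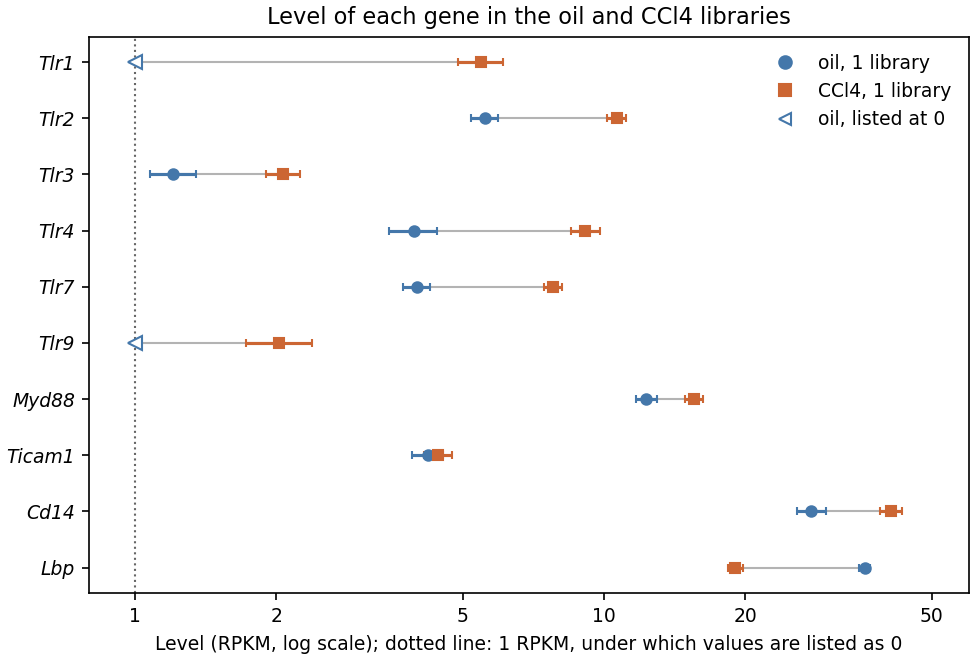
Level of each member in RPKM in the oil library and the CCl4 library (1 point per library, log axis), with 95% counting intervals. Lbp (36.0374 in oil, 19.1 in CCl4) is the member that is lower in CCl4, and Tlr1 and Tlr9 are listed at 0 in oil.

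In oil, the members were ordered Lbp, Cd14, Myd88, Tlr2, Ticam1, Tlr7, Tlr4 and Tlr3, with Tlr1 and Tlr9 listed at 0. In CCl4, Cd14 stood first, ahead of Lbp, Myd88, Tlr2, Tlr4, Tlr7, Tlr1, Ticam1, Tlr3 and Tlr9. The counting intervals of neighbors overlapped for Ticam1, Tlr7 and Tlr4 in oil and for Tlr3 and Tlr9 in CCl4. All other neighbors in either order had intervals apart.

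Between the libraries, 9 of the 10 members were listed higher in CCl4 than in oil and Lbp was lower, and 69.8% of all genes compared were higher. Tlr1 and Tlr9, listed at 0 in oil, could only come out higher. More cells that carry a gene and more RNA of it per cell cannot be told apart in bulk libraries such as these. A difference of at least 1 on the log2 scale, after adding 0.1 RPKM to both values, served as the call. It was met by 2 members, Tlr1 and Tlr4, both higher, and by none in the lower direction. Among all 12012 genes compared, 15.5% were higher and 5.25% lower by the same rule, so the 2 of 10 called are close to the background. The median log2 difference was 0.83 over the 10 members and 0.32 over all genes compared. Genes as a whole stood higher in CCl4, with a median log2 ratio of 0.30 over the 10689 genes listed in both libraries. Values relative to that shift are therefore given as well. Relative to it, 8 of the 10 members lay above the median gene, as did 51.3% of all genes compared. Scaling both libraries to their median mRNA moved the calls over all genes from 74.6% higher to 47.0% higher, with 8.44% of genes then higher and 9.52% lower. Under that scaling Tlr1 was the member called higher and Lbp the member called lower.

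**Figure D2:**
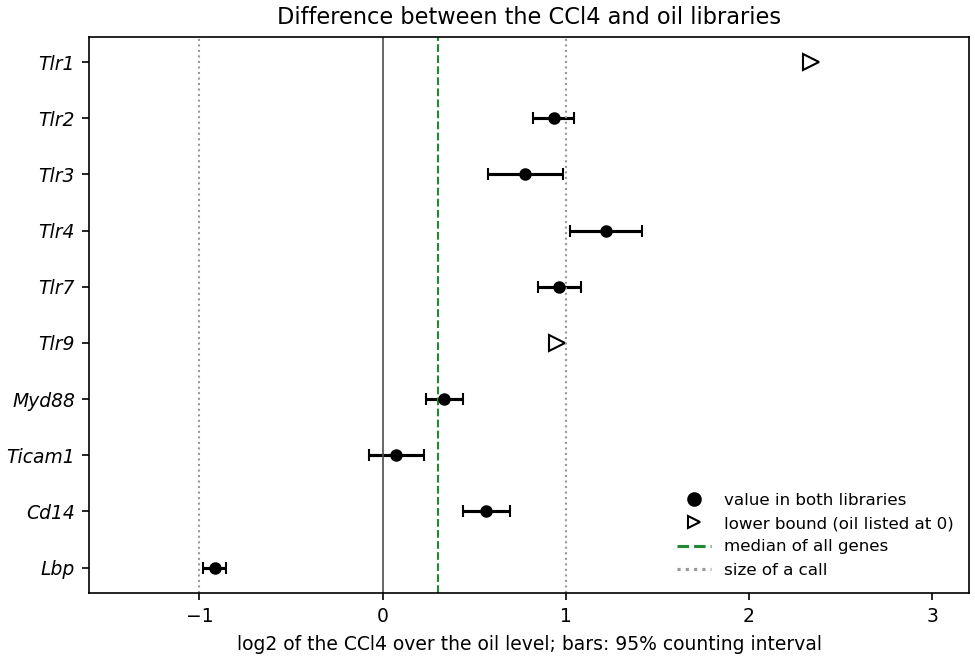
Log2 ratio of recovered reads of each member, CCl4 over oil, with bars for the 95% counting interval. Arrows mark Tlr1 and Tlr9 as lower bounds, taken from RPKM with 0.1 added. Tlr1 (2.34) and Tlr4 (1.22) lie past 1, and Tlr2, Tlr7 and Tlr9 lie just under it, between 0.93 and 0.96.

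Among the surface receptors, all 3 were listed higher in CCl4. Positions are those of the RefSeq gene in GRCm38.p6 (mm10), and no member given a position overlaps another annotated gene. Tlr1 (chr5:64924680-64933600), which pairs with Tlr2 on triacylated lipopeptides, was listed at 0 in oil and at 5.47 RPKM in CCl4 (4.89-6.11), from at least 321 reads. Its log2 difference was at least 2.34, or 2.04 above the median gene, and 98.7% of the genes compared had a smaller value. A further Tlr1 transcript behaved alike, with 0 in oil and 5.33 RPKM in CCl4. Tlr1 and Tlr6 are close paralogs, and how the authors' counting treated reads that fit both is not given in the sources used here.

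Tlr2 (chr3:83836272-83841824), the receptor for bacterial lipoproteins, was at 5.57 RPKM in oil (5.22-5.95) and 10.6451 RPKM in CCl4 (10.2-11.1). It was 1.91-fold higher, a log2 difference of 0.92, just under the call. Tlr4 (chr4:66827551-66846581), the receptor for lipopolysaccharide, was at 3.93 RPKM in oil (3.49-4.405) and 9.13 RPKM in CCl4 (8.49-9.81). The intervals of the 2 libraries did not overlap for either gene. The Tlr4 level was 2.33-fold higher, a log2 difference of 1.20, and 89.4% of the genes compared had a smaller value. The log2 ratio of its reads was 1.22 (1.02 to 1.42). Relative to the median gene the difference was 0.89, so the call on Tlr4 rests on the scaling, and scaled to the median mRNA its value was 0.88.

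The endosomal receptors were also all listed higher. Tlr3 and Tlr7 did not pass the call, and Tlr9 has only a lower bound, which is under it. Tlr7 (chrX:167303380-167330574), a sensor of single-stranded RNA, was at 3.99 RPKM in oil (3.73-4.27) and 7.79 RPKM in CCl4 (7.44-8.15), 1.95-fold higher with a log2 difference of 0.95. Tlr3 (chr8:45395665-45411075), a sensor of double-stranded RNA, was at 1.21 RPKM in oil (1.08-1.35) and 2.07 RPKM in CCl4 (1.90-2.25). Its log2 difference was 0.73. Neither gene's intervals overlapped between the libraries. Tlr9 (chr9:106222598-106226876), which binds unmethylated CpG DNA, was listed at 0 in oil and at 2.03 RPKM in CCl4 (1.72-2.38), from at least 152 reads, a difference of at least 0.95. In oil, Tlr9 lay under the smallest value the table lists, 1.00035 RPKM, and its true level there is unknown. The bound is 1.02 with nothing added, and the difference is 4.41 with the listed 0 taken as 0, so whether Tlr9 passes depends on these settings.

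The adaptors had log2 differences of 0.33 and 0.07, both under those of the 6 receptors. Myd88 (chr9:119335934-119340018) was at 12.3 RPKM in oil (11.7-13.0) and 15.6 RPKM in CCl4 (14.9-16.3), 1.26-fold higher. Relative to the median gene its log2 difference was 0.03, and 50.7% of the genes compared had a smaller value, which places Myd88 at the middle of all genes. Ticam1 (chr17:56269462-56276767) was at 4.21 RPKM in oil (3.90-4.54) and 4.44 RPKM in CCl4 (4.14-4.75), and the intervals overlapped. Its log2 difference was 0.07, which turned to -0.24 under scaling to the median mRNA, and its read ratio (-0.07 to 0.22 on the log2 scale) includes no difference.

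The genes that deliver lipopolysaccharide went opposite ways. Cd14 was at 27.7 RPKM in oil (25.8-29.7) and 41.0376 RPKM in CCl4 (38.9-43.3), 1.48-fold higher with a log2 difference of 0.56. Lbp (chr2:158306493-158332852) was at 36.0374 RPKM in oil (35.1-37.0) and 19.1 RPKM in CCl4 (18.4-19.8), 1.89-fold lower, with a log2 difference of -0.91. Only 6.19% of the genes compared had a smaller value than Lbp. Relative to the median gene, the Lbp difference was -1.22. Lbp led the members in oil and was second in CCl4, where Cd14 led. Ratios of members within a library were chosen after the values were seen and are free of the scaling. The Cd14 to Lbp ratio was 0.769 in oil and 2.15 in CCl4, a log2 difference of 1.48 (1.34 to 1.63). The Tlr4 partner Ly96, also named after its values were seen, was listed at 3.36 RPKM in oil and 3.69 RPKM in CCl4. The Tlr4 to Ly96 ratio was 1.17 in oil and 2.47 in CCl4, a log2 difference of 1.08 (0.67 to 1.499). The log2 difference of Ly96 itself was 0.13. The Myd88 to Ticam1 ratio was 2.93 in oil and 3.51 in CCl4, whereas the Cd14 to Tlr4 ratio was lower in CCl4, at 7.06 and 4.49, a log2 difference of -0.65 (-0.88 to -0.42).

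**Figure D3:**
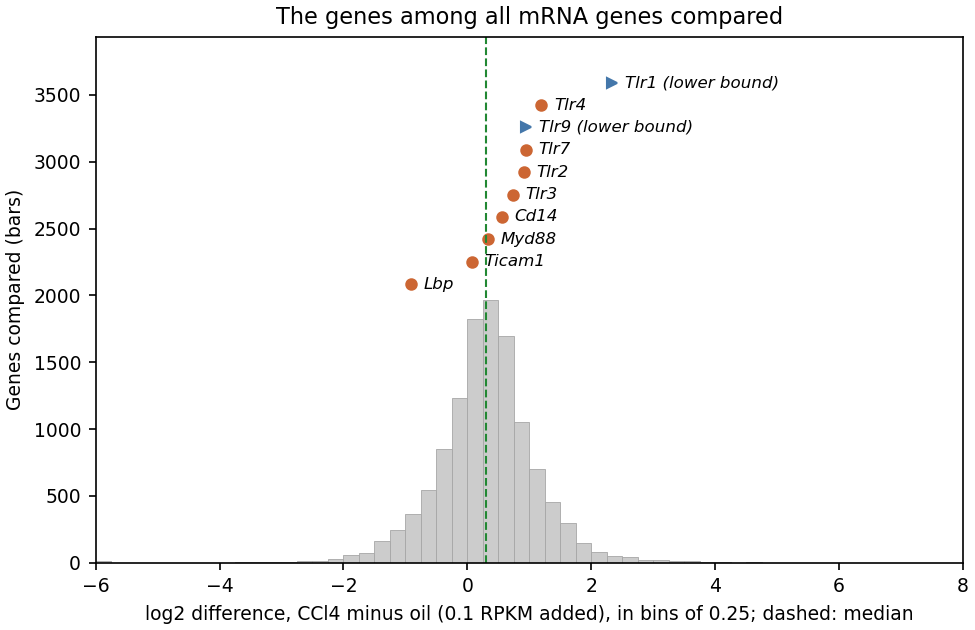
Log2 differences of all 12012 compared genes as a histogram, with the 10 members marked. The bulk of genes lies above 0, with a median of 0.32, and Lbp lies on the left side at -0.91.

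The remaining receptor genes were read the same way. Of the 12 mouse receptors, 10 could be compared, as Tlr5 and Tlr11 were listed at 0 in both libraries. Of these, 3 (Tlr1, Tlr6 and Tlr9) are listed at 0 in oil, entered through CCl4 alone and could only come out higher. The 7 listed in both libraries were above 0 and above the median gene. By the call, 4 of the 10 were higher (Tlr1, Tlr4, Tlr8 and Tlr13), against 15.5% of all genes compared. The median log2 difference over the 10 was 0.95. Of the 7 listed in both libraries, 3 were called higher, and their median was also 0.95. The 7 were above 0 under each scaling tried. Tlr13, a sensor of bacterial ribosomal RNA, was at 3.82 RPKM in oil and 11.9 RPKM in CCl4. Tlr8, next to Tlr7 on chromosome X, was at 3.90 and 10.2 RPKM. Tlr12 was at 2.78 and 5.24 RPKM, and Tlr6 was listed at 0 and 1.87 RPKM. The summed level of the 7 receptors listed in both libraries was 25.2 RPKM in oil and 56.99 RPKM in CCl4.

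The genes that act with or below the receptors were taken from lists of the pathway. Of 61 such genes, neither members nor receptors, 57 could be compared, with a median log2 difference of 0.36. Of the 57, 13 were called higher and 1 lower, against 15.5% and 5.25% of all genes compared. Most of the 13 fell under 1 relative to the median gene, and only Cd36, Ly86, Atf3, Tnfaip3 and Irak3 stayed past it. Co-receptors and chaperones gave 5 of 10 higher. The most abundant of these by mean RPKM were Unc93b1, which carries endosomal receptors to their compartment (39.5 and 87.9 RPKM), Cd36 (19.7 and 70.6 RPKM) and Ly86 (15.7 and 40.1 RPKM). Relative to the median gene, only Cd36 (1.54) and Ly86 (1.04) of these 5 stayed past 1, and Unc93b1 was at 0.85. The adaptor Tirap, which links Tlr2 and Tlr4 to Myd88, was the 1 lower gene, at 5.46 RPKM in oil and 2.63 RPKM in CCl4. Kinases and ligases gave 1 of 17 higher (Tab1, 1.83 and 4.11 RPKM), and their median was 0.22, under the median of all genes. Relative to the median gene, Tab1 was at 0.82.

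Transcription factors gave 3 of 12 higher, namely Irf8 (19.9 and 41.3 RPKM), Irf5 (14.9 and 33.4 RPKM) and the stress-induced Atf3 (3.25 and 13.9 RPKM). Of all genes compared, 15.5% were higher by the call. Relative to the median gene Atf3 (1.76) stayed past 1, and Irf5 (0.85) and Irf8 (0.75) did not. Inhibitors of the pathway gave 4 of 15 higher, among them Tnfaip3 (A20, 2.92 and 7.48 RPKM) and Irak3 (1.14 and 3.001 RPKM). Only Tnfaip3 (1.03) and Irak3 (1.02) of these 4 stayed past 1 relative to the median gene. Among 17 inflammatory target genes compared, 6 were higher and 2 lower, against 15.5% and 5.25% of all genes compared. Relative to the median gene some of the 6 fell under 1, Il1a (0.79) among them. Marco, a macrophage scavenger receptor, was at 42.3 and 278 RPKM and Saa3 at 80.5 and 337 RPKM, whereas the chemokine Cxcl1 was at 105 RPKM in oil and 9.27 RPKM in CCl4 and Lcn2 at 99.7 and 21.4 RPKM. Tnf, Il6, Il10 and Ifnb1 were listed at 0 in both libraries, as were Il12a, Ptgs2 and Nos2. Of the 17 targets, 13 were above 0, as were 69.8% of all genes compared. One of the 13 was listed at 0 in oil and could only come out higher. Of the 16 targets listed in both libraries, 12 were above 0.

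**Figure D4:**
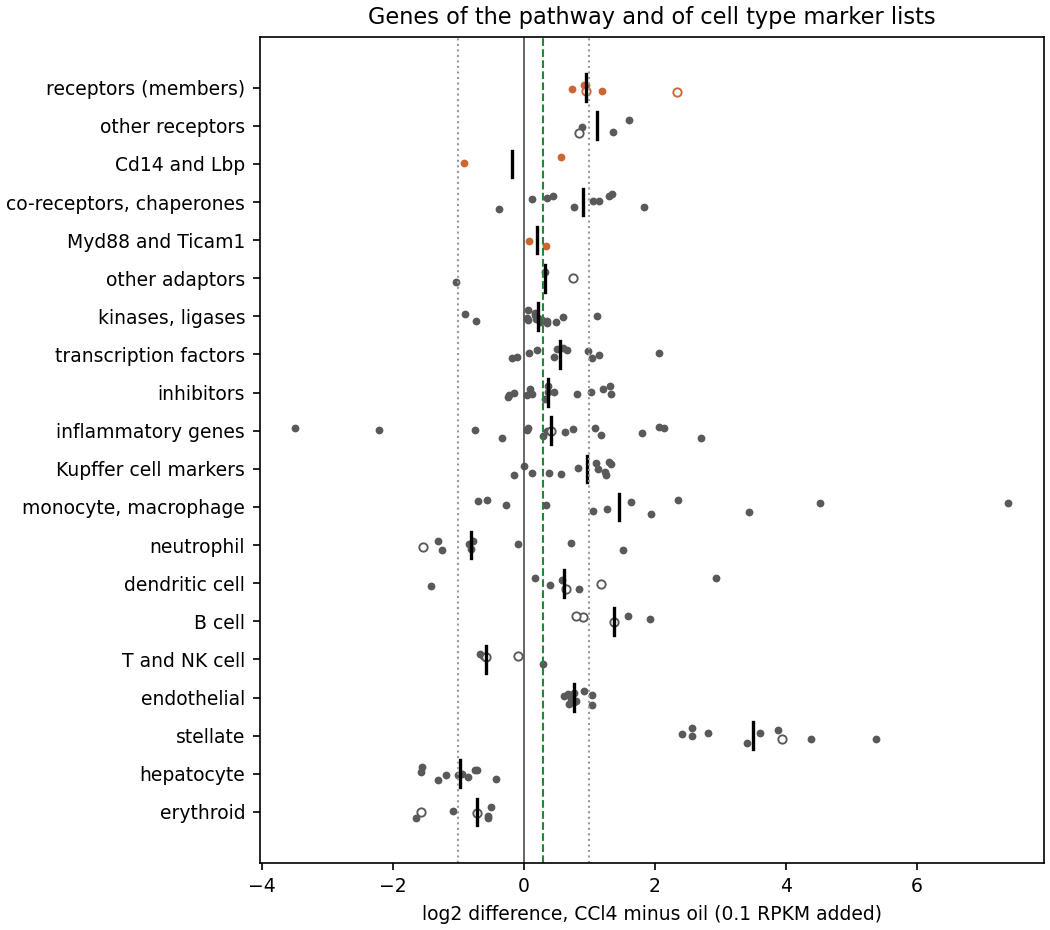
Log2 difference of each compared gene by list, with the median of each list. Receptors among the members sit at a median of 0.95, the other receptors at 1.13, kinases and ligases at 0.22 and hepatocyte markers at -0.97.

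Marker lists of other cells went different ways: the medians of the Kupffer cell, macrophage, B cell, dendritic cell, endothelial and stellate cell lists were above 0, and those of the neutrophil (-0.81), T and NK cell (-0.57) and erythroid (-0.71) lists below it. Kupffer cell markers gave 6 of 12 higher by the same call, against 15.5% of all genes compared. Scaled to the median mRNA, the largest difference in this list was 1.01, so most of its calls rest on the scaling. Under that scaling 8.44% of all genes were higher. The list had a median log2 difference of 0.96, close to that of the receptors, and a summed level of 1539 RPKM in oil and 2981 RPKM in CCl4. Of its 12 genes, 11 were above 0, and 9 when scaled to the median mRNA. C1qc was at 247 and 611 RPKM and Cd5l at 278 and 595 RPKM, yet Clec4f, restricted to Kupffer cells, was at 283 and 255 RPKM. The list of monocytes and recruited macrophages gave 8 of 12 higher, with a median of 1.46 and a summed level of 569.2 and 2350 RPKM, Lyz2 alone at 321 and 1645 RPKM. Of its genes, 9 of 12 were above 0, and Ly6c2 (-0.70), Chil3 (-0.56) and Fn1 (-0.27) were below it, Ly6c2 and Chil3 being named after their values were seen. B cell markers gave 3 of 5 higher, with Cd79a at 1.403 and 5.62 RPKM and Pax5 listed at 0 in both libraries. Stellate cell markers gave 10 of 10 higher, with a median of 3.51 (summed 78.5 and 906 RPKM), and endothelial markers 2 of 10, with a median of 0.76 (610 and 1050 RPKM). Relative to the median gene, the called endothelial markers Lyve1 (0.75) and Fcgr2b (0.74) lay under 1. Neutrophil markers gave 1 of 9 higher and 3 lower (317 and 222 RPKM) and T and NK cell markers none of 5 in either direction (12.3 and 7.35 RPKM). Over genes listed in both libraries, the sums were 314 and 222 RPKM for neutrophil markers and 9.74 and 7.35 RPKM for T and NK cell markers. Dendritic cell markers gave 2 of 8 higher and 1 lower, and of the 6 listed in both libraries 1 was higher and 1 lower, with 5 above 0 and a median of 0.50. Their summed level of 92.4 RPKM in oil and 67.8 RPKM in CCl4 is made up in large part of the lower gene, Klk1, at 75.0 and 28.1 RPKM. Erythroid markers gave 3 of 7 lower. Genes listed at 0 in 1 library could come out in 1 direction only, which holds at 0 in oil for 3 B cell, 2 dendritic cell and 1 stellate cell markers and at 0 in CCl4 for 1 neutrophil, 2 T and NK cell and 2 erythroid markers. The part of these cells in the receptor differences was not tested.

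Lbp is read beside the hepatocyte markers. All 10 of these were lower in CCl4, 4 of them past the call, with a median of -0.97 and a summed level of 22793 RPKM in oil and 13440 RPKM in CCl4. Alb was at 8656 and 6476 RPKM, and Apoa1, the main protein of high-density lipoprotein, at 4086 and 1650 RPKM. The Lbp difference of -0.91 is near that median, and whether it moved with the share of hepatocyte RNA was not tested.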

How the data were processed

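RNA-seq of primary hepatocytes was analysed in 2 libraries, oil and CCl4. The authors deposited RPKM values per RefSeq transcript (27457 mRNAs), with values under 1 RPKM listed as 0, and, for new lncRNAs, read counts and lengths. On the new lncRNAs this cutoff held for all 2655 values under 1 RPKM and all 185 values above it. The submitters' processing notes name TopHat2, CASAVA 1.4 and mm10; the counting program is not given in the sources used here. The deposited log2 changes, p-values and q-values of the authors' own comparison were not used. The members and gene lists were chosen with earlier results of these data known.

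Symbols were matched for 27049 transcripts, and the transcript with the highest mean RPKM stood for its gene. A listed 0 was set to the smallest value listed in its library, which gives a lower bound. Calls needed an absolute log2 difference of 1 with 0.1 RPKM added. Genes at 0 in both libraries were not compared. Named genes were all members and, per list, up to 3 called genes a direction and up to 2 others, by mean RPKM; Ly96, Ly6c2, Chil3 and the genes named as listed at 0 in both libraries fall outside this rule and were chosen after their values were seen. Reads were recovered from the steps of RPKM values as lower bounds, using library totals at which 96.6% (oil) and 96.3% (CCl4) of genes shorter than 400 bases gave whole reads within 0.01. On 1397 new lncRNAs recovered reads equalled the deposited counts in 83.4% and never exceeded them. Intervals are exact 95% Poisson for levels and Clopper-Pearson for the CCl4 to oil ratio of a gene's reads. For the change in a ratio between different genes, the 95% interval is a normal approximation on the log2 scale. All intervals come from recovered reads and cover counting error only. Procedures were tested on simulated data. The work was done in Python 3.11.15 (pandas 2.3.3, scipy 1.17.1, numpy 2.4.6, matplotlib 3.10.9).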

Additional observations from a re-analysis of the deposited data

How the results depend on the processing

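The 2 members called higher became 1 when both libraries were scaled to the median mRNA (Tlr1), 1 at a log2 difference of at least 2 (Tlr1), 1 over genes averaging 5 RPKM or more (Tlr4) and 1 on recovered reads (Tlr4), where no oil reads can be recovered for Tlr1 from a listed 0. They became 3, with Tlr9 added, with nothing added and with a listed 0 taken as 0. The 0 members called lower became 1 (Lbp) when scaled to the median mRNA. Of all genes compared, the 1858 called higher became 1224 with 1 RPKM added, 1014 scaled to the median mRNA, 261 at a log2 difference of at least 2 and 962 of the 6869 genes averaging 5 RPKM or more (14.005% against 15.5%). With a listed 0 taken as 0 they became 2689. The 631 called lower became 1144 scaled to the median mRNA and 94 at a log2 difference of at least 2. Of 74 member values under the alternatives, 57 moved by no more than the distance from the middle of their counting interval to its end. The other 17 moved by more. For Tlr1 and Tlr9 the interval used was that of the CCl4 level alone, on the log2 scale. Ticam1 alone turned in sign, to -0.24, scaled to the median mRNA. Tlr1 ranged from 1.69 with 1 RPKM added to 5.80 with a listed 0 taken as 0, and Tlr9 from 0.60 to 4.41 under the same settings. Calls over all genes were not run on recovered reads, and each group is 1 library, so no library could be left out. No paired analysis was possible because each group has 1 library.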
